A study of Caenorhabditis elegans with 45 samples.

Results

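In 45 genes of *Caenorhabditis elegans*, no RNA was measured in the reference strain N2 while at least 1 of 4 wild strains expressed the gene. A gene was a member when its deposited normalized count was 0 in all 9 N2 libraries and averaged 5 or more over the 9 libraries of JU1088, EG4348, CB4856 or QX1211. The normalized count is a read count scaled for library size and transcript length, and the table lists 18589 genes. Of 362 genes at 0 in all 9 N2 libraries, 305 stayed below a mean of 5 everywhere, and 12 belonged to the C-type lectin, F-box, MATH, BATH or nematode-specific peptide families (symbols starting clec-, fbxa-, fbxb-, fbxc-, math-, bath- and nspa- to nspe-), which were left out. Among the 12, 6 pseudogenes were recognized by their RefSeq names alone, without which the members would number 51. These values chose the members, so the levels by strain are a description with no test.

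RNA came from whole hermaphrodites on day 1 of adulthood. Each of the wild strains JU1088, EG4348, CB4856 and QX1211, and the laboratory strain N2, was fed bacteria with *par-1* RNAi, *pos-1* RNAi or the empty vector as control, with 3 biological replicates per group and therefore 9 libraries per strain. The bacteria make double-stranded RNA, and *par-1* and *pos-1* are maternal genes that the early embryo needs. All RNAi was done at 20 °C. QX1211 had been maintained at 18 °C and the other strains at 20 °C, and the plates of the 4 wild strains contained 1.25% agarose, so these conditions cannot be told apart from strain. Germline RNAi competency is described by the study as high in JU1088, moderate in EG4348, and largely absent in CB4856 and QX1211. Whole animals were used, so fewer cells of a type and less RNA per cell cannot be told apart.

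As background, the *C. elegans* reference genome and its gene models come from N2, a strain kept in laboratories for decades. Wild isolates differ from it most on the chromosome arms, where recombination is frequent and where large, quickly changing gene families lie. A pseudogene in this annotation is a locus that resembles a gene but whose N2 sequence is not expected to make the intact protein, and such a locus can still be transcribed.

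Estimated reads per library ranged from 4269033 to 17865356, with a median of 7478891 over the 45 libraries and a sum of 72502670 over the 9 N2 libraries. The members together held 0 estimated reads in N2. A count of 0 allows up to 3 reads over the 9 libraries, or a CPM (reads scaled to library size) of 0.0414, so silence is meant at this depth, and the limit covers counting error only. In the *pos-1* RNAi libraries *pos-1* had 415 to 632 normalized counts in JU1088, 2482 to 3248 in EG4348, 5617 to 6571 in CB4856, 4909 to 5114 in QX1211 and 795 to 1077 in N2. The controls had 6236 to 6425 in JU1088, 6335 to 6621 in EG4348, 6104 to 6672 in CB4856, 5308 to 5567 in QX1211 and 5540 to 5777 in N2. The *par-1* count in the *par-1* RNAi libraries overlapped the controls in JU1088, EG4348, CB4856, QX1211 and N2. The labels give 3 libraries (JU1088 *pos-1* RNAi replicate 2, CB4856 *par-1* RNAi replicate 3 and QX1211 control replicate 1) one and the same fragment length. The RNAi tests were also run without them, but the comparisons with N2 controls were not.

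QX1211 expressed 27 members at a mean of 5 or more, CB4856 21, EG4348 15 and JU1088 9. A single strain carried 27 members, with 12 in QX1211, 7 in CB4856, 6 in EG4348 and 2 in JU1088. Another 11 reached the mean of 5 in a pair of strains, most often in CB4856 and QX1211 (5 members), 5 reached it in 3 strains, and 2 in all 4. Of the 72 pairs of a member and a strain in which it reached a mean of 5, 55 (76.4%) had reads in all 9 libraries and 10 in 6 to 8. The other 7 pairs had reads in at most 3 libraries and are described with the overlapping genes. They were Y46H3C.5, *rab-19*, *arv-1*, F45G2.9 and K09H9.11 in EG4348, and *rab-19* in CB4856 and in QX1211. The members carried by EG4348 alone thus include *arv-1*, F45G2.9 and K09H9.11, each seen in isolated libraries. The highest strain mean had a median of 12.5 over the members, against 39.9 over all genes of the table. It lay at 50 or more in 7 members, between 10 and 50 in 21 and below 10 in 17. The same rule applied to each wild strain in place of N2 gave 165 genes silent in QX1211, 143 in EG4348, 128 in CB4856 and 101 in JU1088, against 45 in N2. These numbers are not like for like. Reads were counted on N2 gene models, so a gene absent from N2 cannot appear. The paper classed part of the unexpressed genes of its own list as missing or low in DNA coverage in the wild strains, and none in N2.

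**Figure D1:**
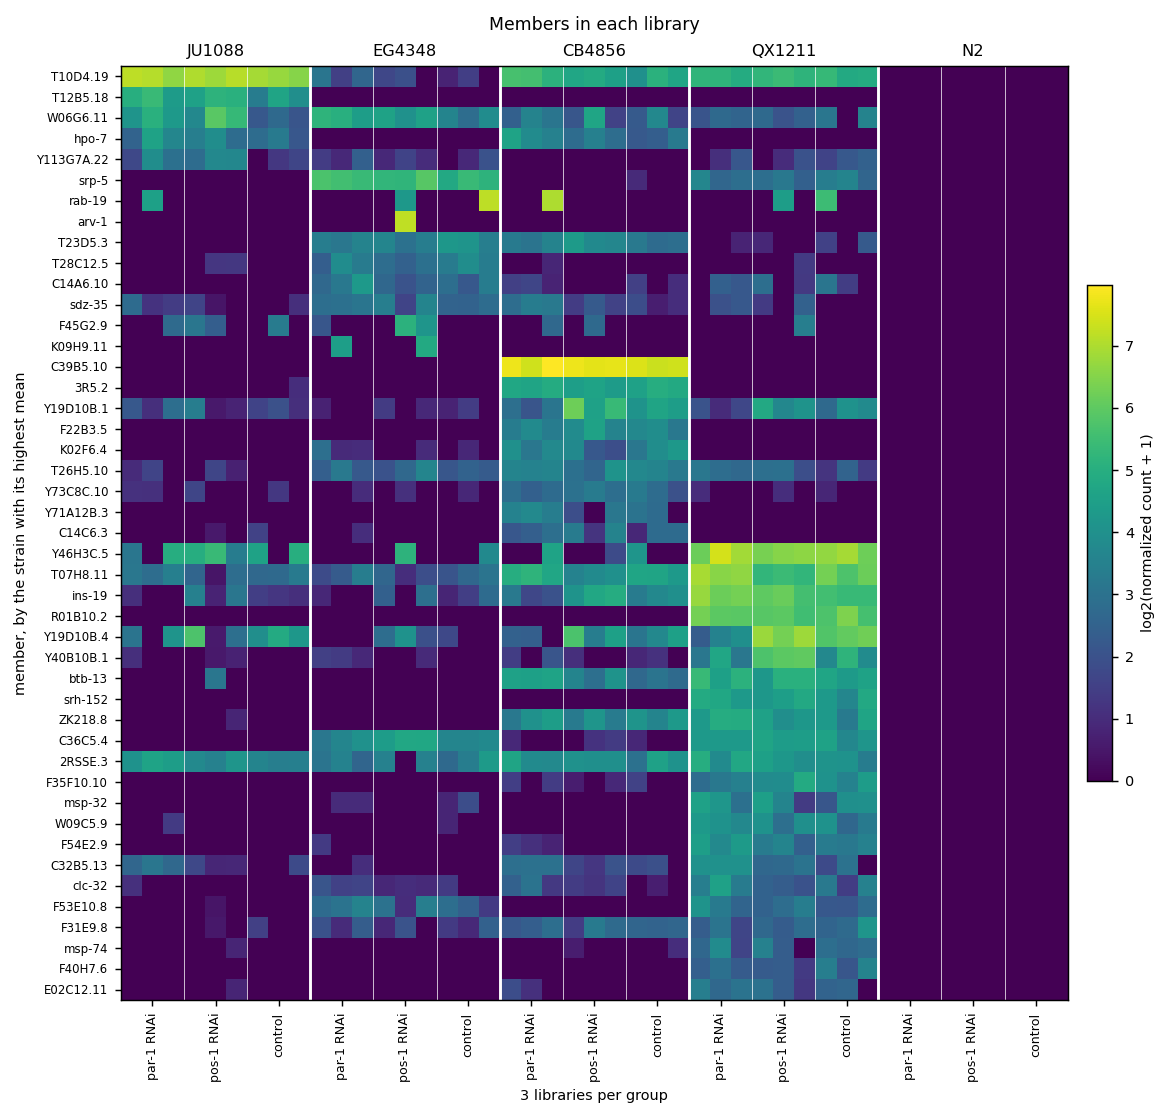
Each row is 1 of the 45 members, grouped by the strain with its highest mean, and each column 1 of 45 libraries, ordered by strain and treatment; color gives log2(normalized count + 1). The N2 columns are at 0 by the rule, and 22 members are highest in QX1211, 9 in CB4856, 9 in EG4348 and 5 in JU1088.

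C39B5.10 (WBGene00016528), a small protein-coding gene on chromosome III from 2239328 to 2239637 (WBcel235, minus strand), had the highest count of all members. Over the 9 CB4856 libraries its normalized count had a lowest, median and highest value of 162, 198 and 250. All 9 libraries of JU1088, EG4348, QX1211 and N2 were at 0. Its 2113 estimated reads in CB4856 make it at least 629-fold higher there than the limit of 3 reads over the 9 N2 libraries. Per length, its level was 497 ± 76.4 TPM (SD, n = 9), the highest TPM of the members.

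R01B10.2 (WBGene00019804; chromosome V from 6041196 to 6041475, minus strand), also protein coding, was seen in QX1211 and in no library of the other strains. Its counts in QX1211 were 78.6, 61.1 and 60.6 under *par-1* RNAi, with 58.8, 61.6 and 45.1 under *pos-1* RNAi, and 53.0, 85.3 and 48.7 in the control. The 3 groups overlapped. The mean level was 223 ± 48.7 TPM (SD, n = 9).

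T12B5.18 (WBGene00306000; chromosome III from 947784 to 948266), a pseudogene, was the highest member carried by JU1088 alone. It had 30.8, 41.0 and 19.9 normalized counts under *par-1* RNAi, with 22.6, 34.6 and 32.3 under *pos-1* RNAi, and 9.21, 24.0 and 14.4 in the control, with 0 in every library of EG4348, CB4856, QX1211 and N2. 3R5.2 (WBGene00007066; chromosome III from 13782587 to 13783459), a pseudogene, ran from 19.6 to 30.1 in CB4856 with a median of 24.2, and outside CB4856 1 library, a JU1088 control, reached 1.06. In all, 9 members were above 0 in 1 strain alone: C39B5.10, F22B3.5 and Y71A12B.3 in CB4856, R01B10.2, srh-152 and F40H7.6 in QX1211, T12B5.18 in JU1088, and *arv-1* and K09H9.11 in EG4348. Of these, *arv-1* was above 0 in only 1 EG4348 library and K09H9.11 in 2.

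T10D4.19 (WBGene00305132; chromosome II from 3151918 to 3152575, plus strand), a protein-coding gene, was high in JU1088 and intermediate in CB4856 and QX1211. Over 9 libraries it had a lowest, median and highest count of 91.3, 119 and 145 in JU1088, 15.1, 28.1 and 48.9 in CB4856, and 27.8, 35.8 and 42.2 in QX1211. EG4348 had 0, 1.86 and 7.54. The libraries of CB4856 and QX1211 overlapped, and all JU1088 libraries lay above them. The level in JU1088 was 48.1 ± 8.01 TPM (SD, n = 9).

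T07H8.11 (WBGene00304201; chromosome V from 6950807 to 6951406, minus strand), also protein coding, was present in all 36 libraries of the wild strains. Its mean count was 6.14 ± 2.71 in JU1088, 4.51 ± 2.60 in EG4348, 22.0 ± 8.28 in CB4856, with 70.6 ± 30.5 in QX1211 (SD, n = 9 each). Within QX1211 the counts were 122, 93.1 and 100 under *par-1* RNAi, with 37.0, 42.6 and 37.4 under *pos-1* RNAi, and 78.4, 52.5 and 71.7 in the control. Within CB4856 they were 30.4, 35.5 and 25.5 under *par-1* RNAi, with 10.5, 13.0 and 15.2 under *pos-1* RNAi, and 24.5, 24.2 and 18.8 in the control. In both strains the *par-1* RNAi libraries lay above and the *pos-1* RNAi libraries below all controls, but none of these differences passed the test described later (log2 fold change 0.60 in QX1211 and 0.41 in CB4856 for *par-1* RNAi, -0.81 in QX1211 and -0.82 in CB4856 for *pos-1* RNAi, adjusted p from edgeR from 0.349 to 1).

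*ins-19* (WBGene00002102; chromosome II from 3126037 to 3126441, minus strand) encodes an insulin-like peptide, one of the many candidate ligands of the insulin receptor DAF-2. Its mean count was 2.68 ± 3.67 in JU1088, 2.26 ± 2.66 in EG4348, 13.5 ± 9.42 in CB4856, with 62.5 ± 21.4 in QX1211 (SD, n = 9 each). Every QX1211 library lay above every CB4856 library, while JU1088 and EG4348 overlapped. The level in QX1211 was 93.9 ± 34.1 TPM (SD, n = 9).

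**Figure D2:**
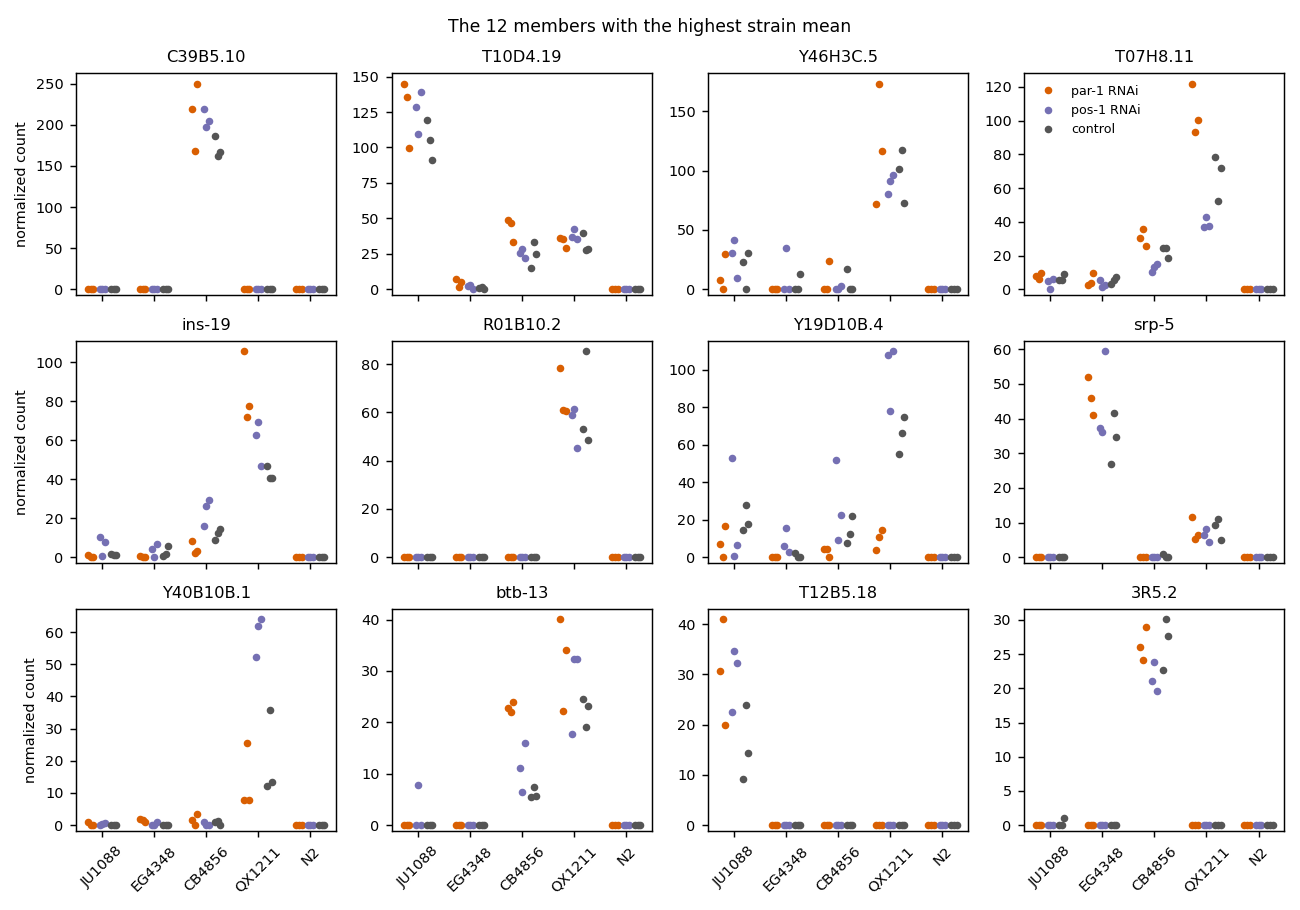
Normalized counts of the 12 members with the highest strain mean, 1 panel each; points are libraries, colored by treatment, in JU1088, EG4348, CB4856, QX1211 and N2 from left to right. C39B5.10, R01B10.2 and T12B5.18 are above 0 in a single strain, while T10D4.19, T07H8.11 and *ins-19* are graded among the wild strains.

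Both members expressed in all 4 wild strains sat at low counts. W06G6.11 (WBGene00012313; chromosome V from 16649031 to 16649300, minus strand), a short protein-coding gene, averaged 21.4 ± 19.4 in JU1088, 20.0 ± 9.49 in EG4348, 7.87 ± 7.24 in CB4856, with 5.08 ± 3.06 in QX1211 (SD, n = 9 each), and 1 of 36 wild libraries, a QX1211 control, was at 0. The pseudogene 2RSSE.3 (WBGene00044951; chromosome II from 15277890 to 15278575) averaged 14.5 ± 5.07 in JU1088, 8.71 ± 5.32 in EG4348, 15.5 ± 5.25 in CB4856, with 18.3 ± 6.76 in QX1211. The libraries of the 4 strains overlapped for both genes. In JU1088 the mean of W06G6.11 passed 5 through the RNAi libraries. Its controls there had 3.60, 5.59 and 3.30, all below the EG4348 controls at 11.1, 6.27 and 13.9.

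Of the members of named gene families, 4 are pseudogenes: ZK218.8, *srp-5*, *btb-13* and *srh-152*. ZK218.8 (WBGene00013942; chromosome V from 17116336 to 17117034, plus strand) resembles the Argonautes, the proteins that bind small RNAs, and is annotated as a pseudogene. It ran from 8.20 to 20.8 in CB4856 and from 8.61 to 29.3 in QX1211, with 0.772 in 1 JU1088 library and 0 in all EG4348 and N2 libraries. *srp-5* (WBGene00005646; chromosome V from 7382021 to 7383309), a pseudogene of the serpin family of protease inhibitors, ran from 26.9 to 59.4 in EG4348 and from 4.45 to 11.6 in QX1211, with 0.939 in 1 CB4856 library and 0 in JU1088. The pseudogene *btb-13* (WBGene00022561; chromosome II from 1653838 to 1654732), of the family with the BTB protein interaction domain, ran from 5.51 to 23.9 in CB4856 and from 17.8 to 40.0 in QX1211, with 7.72 in 1 JU1088 library and 0 in EG4348. *srh-152*, a pseudogene of a serpentine chemoreceptor class, ran from 11.6 to 28.5 in QX1211 and was at 0 elsewhere. Of the 45 members, 1 was a chemoreceptor, 1 an Argonaute, 2 sperm genes, and 0 were nuclear receptors, pals genes, detoxification enzymes (cyp-, ugt- or gst-), cuticle collagens or hedgehog-related genes. In the whole table the chemoreceptors were 418 of 18584 annotated genes (2.25%) and the nuclear receptors 239 (1.29%), while sperm genes (msp-, ssp- and spe-) were 4.44% of the members and 0.382% of the table and Argonautes 2.22% and 0.118%. The list of Argonautes included ZK218.8 by name, so the Argonaute share was fixed by the list and shows no excess. A sequence name was the only name of 34 members (75.6%), against 46.4% of the annotated genes of the table.

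*msp-32* and *msp-74*, members of the major sperm protein family, reached 12.7 ± 7.58 and 5.90 ± 3.98 in QX1211 (SD, n = 9 each). The family has many nearly identical copies whose reads the counting can split, so these values are uncertain. The summed normalized count of the 43 sperm genes measured (msp- and ssp-) was 647 to 856 in the QX1211 controls and 193 to 627 in the N2 controls, and its part in these values was not tested.

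Another 6 members were shared by a pair of strains, and each had counts in all 9 libraries of the strains named here. C36C5.4 averaged 15.9 ± 6.78 in EG4348 and 19.3 ± 3.63 in QX1211, *hpo-7* 9.74 ± 6.09 in JU1088 and 9.58 ± 6.14 in CB4856, and T23D5.3 11.1 ± 3.73 in EG4348 and 10.1 ± 4.23 in CB4856 (SD, n = 9 each). F53E10.8, a pseudogene, averaged 6.01 ± 3.29 in EG4348 and 7.03 ± 4.01 in QX1211, F31E9.8, also a pseudogene, 5.03 in CB4856 (from 1.66 to 8.67) and 6.30 in QX1211 (from 2.15 to 16.7), and T26H5.10 5.32 ± 2.73 in EG4348 and 10.3 ± 3.21 in CB4856. The libraries of both strains overlapped for each of these genes. T26H5.10 also averaged 4.79 ± 2.39 in QX1211, below the threshold, with counts in all 9 libraries.

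Of the other members carried by 1 strain, Y40B10B.1 averaged 31.2 ± 23.1 in QX1211 (SD, n = 9), and the rest were lower. In QX1211 they were F35F10.10, W09C5.9, F54E2.9, C32B5.13, *clc-32*, F40H7.6 and E02C12.11 at means from 5.01 to 14.1. W09C5.9 and C32B5.13 each overlap a gene on the opposite strand that averaged at most 3.56 in any strain. In CB4856 they were F22B3.5, K02F6.4, Y73C8C.10, Y71A12B.3 and C14C6.3 at means from 5.31 to 12.5. In EG4348, T28C12.5 and C14A6.10, both pseudogenes, averaged 8.50 ± 3.57 and 7.15 ± 4.62, and *sdz-35*, named as a zygotic transcript that depends on the SKN-1 factor in the embryo, averaged 6.57 ± 2.74. In JU1088, Y113G7A.22 averaged 6.33 ± 5.29. Carried by 1 strain means a mean of 5 or more there, and some of these genes had counts below it elsewhere. *sdz-35* averaged 3.94 ± 3.18 in CB4856 with counts in all 9 libraries, and C32B5.13 averaged 3.59 in CB4856 and 2.74 in JU1088. Just inside the threshold stood E02C12.11 at 5.01 in QX1211 and C14C6.3 at 5.31 in CB4856. Just outside stood the pseudogene Y49E10.8 at 4.98 in QX1211 and Y116A8C.37 at 4.85 in CB4856.

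A few members were counted in isolated libraries, and all of these but F45G2.9 overlap an expressed gene on the same strand. *rab-19*, a small GTPase gene on chromosome IV, had 143 in EG4348 control replicate 3 and 125 in CB4856 *par-1* RNAi replicate 3, and lower counts in 4 further libraries (43.1 in QX1211 control replicate 1, 22.4 in JU1088 *par-1* RNAi replicate 2, and 20.8 and 17.9 in replicate 2 of *pos-1* RNAi in QX1211 and EG4348). It shares its strand with Y62E10A.20. In that EG4348 control library Y62E10A.20 had 57.2, against 210 to 267 in the 7 EG4348 libraries where *rab-19* was 0, and the sum of both genes was 200. In the CB4856 library Y62E10A.20 had 176, against 218 to 264 in the other 8. In the libraries with lower *rab-19* counts it had 268 in JU1088 (others 232 to 328), 228 in EG4348, and 264 and 240 in QX1211 control replicate 1 and *pos-1* RNAi replicate 2 (others 255 to 305), so it lay below the other libraries in the last of these alone. *arv-1*, which resembles a yeast gene of sterol transport, was seen in EG4348 *pos-1* RNAi replicate 2 alone, at 146. There the overlapping R05H5.4 had 81.3, against 199 to 250 in the other 8 EG4348 libraries, and the sum was 227. The snoRNA K09H9.11 had 21.0 and 27.5 in 2 EG4348 libraries, in which the surrounding *vbh-1* had 3980 and 3517, against 4076 to 4616 in the other 7. F45G2.9, with no overlapping gene listed, was above 0 in 4 JU1088 libraries (up to 9.05), 3 EG4348 libraries (up to 33.6), 2 CB4856 libraries (up to 5.61) and 1 QX1211 library (9.55).

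Y46H3C.5 (WBGene00021605; chromosome V from 1691029 to 1692495, minus strand) also overlaps a same-strand gene, Y46H3C.7, but had counts in every QX1211 library. There it had 72.2, 173 and 117 under *par-1* RNAi, with 80.1, 91.5 and 96.6 under *pos-1* RNAi, and 101, 118 and 72.8 in the control. It averaged 19.2 ± 15.2 in JU1088 with 2 libraries at 0, and it was above 0 in 2 EG4348 and 3 CB4856 libraries. Y46H3C.7 averaged 262 ± 77.9 in JU1088, 205 ± 43.7 in EG4348, 300 ± 42.9 in CB4856, with 224 ± 40.7 in QX1211 and 300 ± 45.6 in N2 (SD, n = 9 each), and was lowest in EG4348, where Y46H3C.5 averaged 5.23. E02C12.11 overlaps E02C12.12, which itself averaged 14.1 ± 4.88 in QX1211 and 0.134 ± 0.403 in N2.

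The members were short, often pseudogenes, and placed on the arms of chromosomes V and II. Of the 45, 27 were protein coding, 17 were pseudogenes (37.8%) and 1 was a snoRNA, while pseudogenes were 5.19% of the table. Chromosome V carried 24 members (53.3%), against 21.9% of the table, and chromosome II carried 12 (26.7%), against 17.8%. Chromosome X carried 0, against 14.2% of the table. Chromosomes II and V together held 80.0% of the members, and from 66.7% (QX1211) to 78.1% (CB4856) of the genes silent in each wild strain by the same rule, in which X held from 2.97% (JU1088) to 6.29% (EG4348). Within 33.3% of the length from either end of an autosome lay 41 members (91.1%), against 60.8% of the autosomal genes of the table. The longest transcript had a median of 666 bases in the members and 1248 bases in the table. The genes silent in each wild strain by the same rule had arm shares from 90.4% (QX1211) to 96.3% (EG4348) of their autosomal genes. Pseudogenes made up 18.8% of those silent in JU1088, 22.4% for EG4348, 25.0% for CB4856 and 23.6% for QX1211, against 37.8% for N2. The biotype describes the N2 sequence, so the N2 share and the wild shares are not like for like. The families left out were chosen by name, so the shares describe the remaining genes.

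**Figure D3:**
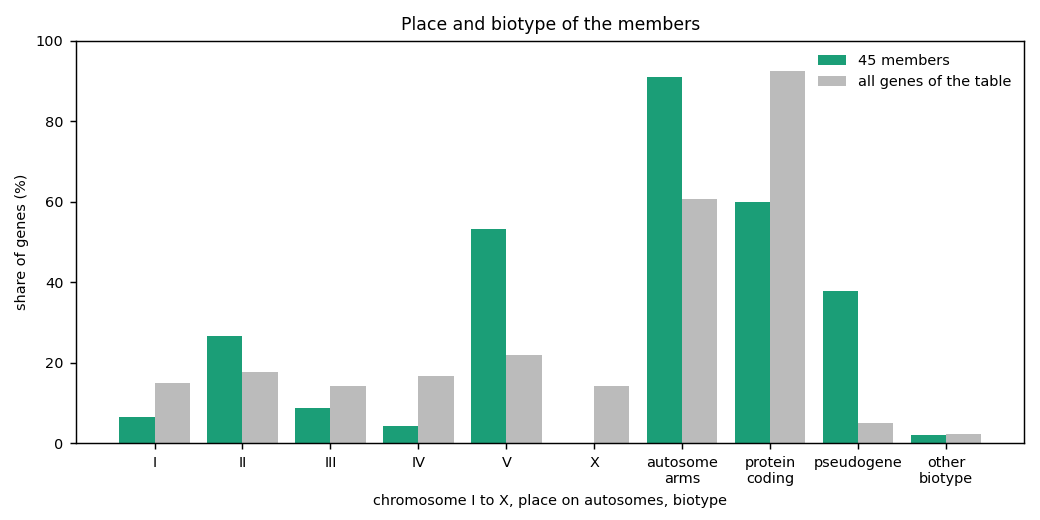
Share of genes (%) by chromosome, by place on the arms (within 33.3% of the length from either end, autosomal genes) and by biotype, for the 45 members and for all genes of the table. Members lie more often on chromosomes V and II and on arms and are more often pseudogenes, with 37.8% against 5.19%.

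The reads of each strain were counted on transcripts carrying that strain's known variants, and a transcript length that differs from N2 shows an insertion or deletion. This held for 1 of 45 members in JU1088, for 3 in EG4348, and for 8 (17.8%) each in CB4856 and QX1211, against 4.58%, 6.52%, 9.22% and 17.9% of the table's genes in those strains. In total 13 members had a different length in some wild strain. The largest changes were in *btb-13* (837 bases in JU1088 and 748 in QX1211, against 751 in N2), T26H5.10 (358 bases in CB4856, against 430) and Y19D10B.1 (1438 bases in QX1211, against 1477). *btb-13* averaged 27.3 in QX1211 and was near 0 in JU1088, where its transcript was longer. C39B5.10 and R01B10.2 had the N2 length in every strain.

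Y19D10B.4 and Y19D10B.1 are the only members within 20 kb of each other, 2131 bases apart on chromosome V and on opposite strands. Both are pseudogenes (WBGene00021233, from 2304355 to 2309159; WBGene00021230, from 2311291 to 2313809). In QX1211, Y19D10B.4 had 4.01, 10.7 and 14.5 under *par-1* RNAi, with 108, 78.0 and 110 under *pos-1* RNAi, and 54.9, 66.1 and 74.7 in the control. Y19D10B.1 had 3.14, 0.962 and 2.21 under *par-1* RNAi, with 27.1, 12.0 and 16.3 under *pos-1* RNAi, and 5.61, 15.8 and 13.0 in the control. For both genes all *par-1* RNAi libraries were below all control libraries. In CB4856, Y19D10B.1 had 6.48, 3.33 and 7.48 under *par-1* RNAi, with 72.9, 22.9 and 40.5 under *pos-1* RNAi, and 16.2, 24.3 and 20.5 in the control. Y19D10B.4 there had 4.53, 4.35 and 0 under *par-1* RNAi, with 52.1, 9.33 and 22.4 under *pos-1* RNAi, and 7.49, 12.2 and 22.1 in the control. *ins-19* and T10D4.19 lie 25476 bases apart on chromosome II.

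Genes next to the members were examined because the rule did not use them; this was chosen after earlier values were seen. The nearest tested gene on each side within 10 kb was compared between the control libraries of the strain in which the member was highest and the N2 controls. Other members and genes overlapping the member were skipped. The test was edgeR's quasi-likelihood test over 18581 genes, called at a Benjamini-Hochberg adjusted p below 0.1 and a fold change above 1.5. Of 80 comparisons, 20 (25.0%) passed, 8 higher and 12 lower in the wild strain. The 80 include irld-15 and C14C6.8, which were at 0 in both groups and could not be called. By strain, 2 of 8 passed in JU1088, 4 of 17 in EG4348, 5 of 17 in CB4856 and 9 of 38 in QX1211. Over all tested genes 3.32%, 8.77%, 7.38% and 12.2% passed in those strains, and over the genes on autosome arms 4.59%, 10.9%, 9.75% and 14.9%. In the same order of strains 0, 1, 2 and 5 were higher, with a background of 1.17%, 1.99%, 3.57% and 6.59% higher. In that order 2, 3, 3 and 4 were lower, with a background of 2.14%, 6.78%, 3.81% and 5.63% lower. The 4 comparisons share the N2 controls.

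F29G9.1, 614 bases from R01B10.2 and on the opposite strand, had 386 ± 33.7 normalized counts in QX1211 controls and 19.6 ± 5.28 in N2 controls (SD, n = 3 each; log2 fold change 4.32, standard error 0.24, adjusted p = 1.44e-16). C36C5.14, next to C36C5.4, had 40.4 ± 12.3 in QX1211 and 1.01 ± 1.04 in N2 (log2 fold change 5.24, adjusted p = 3.14e-08 from edgeR). The chemoreceptor gene *srh-254*, next to T26H5.10, had 18.4 ± 7.96 in CB4856 and 0 in all N2 controls (adjusted p = 0.000178 from edgeR). Beside C39B5.10 the direction was the opposite: C39B5.2 had 14.6 ± 5.43 in CB4856 and 64.5 ± 11.7 in N2 (log2 fold change -2.10, adjusted p = 9.95e-05 from edgeR). ZC239.6, beside *sdz-35*, had 0.183 ± 0.317 in EG4348 and 27.9 ± 10.0 in N2 (log2 fold change -6.15, adjusted p = 3.08e-08 from edgeR). Differences thus ran in both directions around the members.

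**Figure D4:**
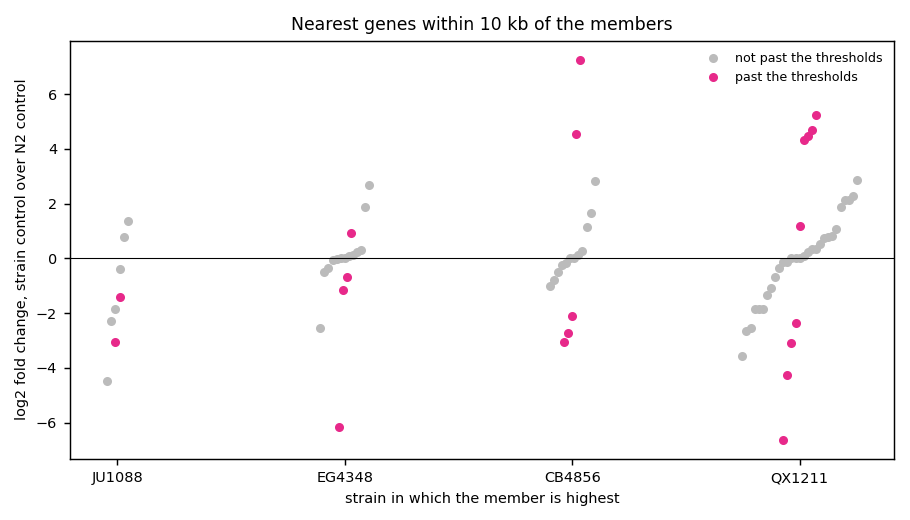
Log2 fold change of the wild strain's control over the N2 control for the nearest tested genes within 10 kb of the members, by the strain in which the member is highest. Other members and overlapping genes are skipped. Of 80 points, 20 pass the thresholds, 8 above and 12 below 0.

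RNAi was compared with the control within each wild strain by the same edgeR test with 15 group means. The mean of 5 pooled RNAi and control libraries, so this contrast is not independent of the choice of members: over the control libraries alone 36 of the 45 would be chosen. C32B5.13 in QX1211 and Y113G7A.22 in JU1088 reached the mean through their RNAi libraries, and their differences there are given as a description. The comparisons of a strain share its 3 control libraries. Over 45 members and 8 comparisons, 13 member and strain pairs passed, 10 higher and 3 lower under RNAi, in 9 members. These counts, and the shares below, include C32B5.13 in QX1211 and Y113G7A.22 in JU1088. The shares are therefore a description too. Under *par-1* RNAi, 2 of 45 members (4.44%) passed in JU1088, 1 (2.22%) passed in EG4348, 4 (8.89%) in CB4856 and 3 (6.67%) in QX1211. All genes tested gave 8.50%, 2.38%, 4.40% and 5.15% in the same order of strains. Members without reads in either group of a strain could not be called there, so the shares of 45 are not comparable with this background. Of the 9, 15, 21 and 27 members at a mean of 5 or more in the strain, 1, 0, 2 and 3 passed. Of the 13 calls, 8 were in a strain in which the member reached that mean. Under *pos-1* RNAi, 3 (6.67%) passed in JU1088, against a background of 8.23%. Of the 9 members at a mean of 5 or more there, 2 passed. By direction, the *par-1* background was 7.86% higher and 0.64% lower in JU1088, 2.13% and 0.253% in EG4348, 3.93% and 0.468% in CB4856, and 4.54% and 0.608% in QX1211, beside 2, 1, 3 and 1 members higher and 0, 0, 1 and 2 lower. All 3 members called in JU1088 under *pos-1* RNAi were higher, against 5.29% higher and 2.94% lower among all genes tested. None passed in EG4348, CB4856 or QX1211, where the background was 0.0646% (0.0215% higher, 0.0431% lower), 0.156% (0.0592% higher, 0.0969% lower) and 0.0807% (all lower); DESeq2 also called 0, and 3, 4 and 3 members had an unadjusted p below 0.05 by edgeR. None of the 13 calls held when each of its 6 libraries was left out in turn, and DESeq2 called 3 of the 10 to which it gave an adjusted p. Of the other 7, 4 had an adjusted p below 0.1 from DESeq2 but a shrunken fold change below 1.5.

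W06G6.11 rose under both treatments in JU1088. The *par-1* RNAi libraries had 16.7, 32.1 and 18.7 and the *pos-1* RNAi libraries 12.2, 60.7 and 39.9, against 3.60, 5.59 and 3.30 in the control. No RNAi library overlapped a control. For *par-1* RNAi edgeR gave a log2 fold change of 2.41 with standard error 0.78 and adjusted p = 0.0453, and for *pos-1* RNAi 3.22 with standard error 0.73 and adjusted p = 0.00737. DESeq2 made both calls. The *par-1* call was lost without control replicate 1, control replicate 3 or *par-1* RNAi replicate 2 (adjusted p from 0.121 to 0.244), and the *pos-1* call without *pos-1* RNAi replicate 2 (2.65 on the log2 scale, adjusted p = 0.109 from edgeR) or without the 3 libraries of one fragment length (adjusted p = 0.129). In EG4348 the *par-1* RNAi libraries had 35.8, 31.4 and 20.5 and the *pos-1* RNAi libraries 22.9, 15.4 and 22.7, against 11.1, 6.27 and 13.9 in the control, which did not pass (log2 fold change 1.53 and 1.01, adjusted p = 0.240 and 0.893 from edgeR). The CB4856 and QX1211 groups overlapped. In JU1088 under *par-1* RNAi 12 of 43 early zygotic genes (the sdz genes and endomesoderm factors) rose and 1 fell, with a summed count of 1272 to 1791 under RNAi and 778 to 852 in the control, and their part in the calls there was not tested. A test of whether the responses differed between the 4 strains did not pass for this gene (adjusted p from 0.135 to 0.771 over 42 alternatives).

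C32B5.13 (WBGene00016306; chromosome II from 961352 to 962061, minus strand), a protein-coding gene with no name beyond its sequence name, was higher under *par-1* RNAi in QX1211 and rose in JU1088. In QX1211 it had 15.4, 15.5 and 15.3 under *par-1* RNAi, against 2.43, 6.97 and 0 in the control (log2 fold change 2.31, standard error 0.62). In JU1088 it had 5.13, 7.72 and 5.44, against 0, 0 and 2.44 in the control (log2 fold change 2.55, standard error 0.90, adjusted p = 0.0703 from edgeR), with 13 reads against 2 (ratio of CPM 6.22, 95% interval from 1.41 to 56.8 for counting error only). QX1211 control replicate 1 is one of the 3 libraries of one fragment length, and without it the QX1211 log2 fold change was 2.11. The JU1088 call was lost without control replicate 1, control replicate 2 or *par-1* RNAi replicate 2 (adjusted p from 0.196 to 0.266). DESeq2 did not make it (adjusted p = 0.121). In CB4856 its counts were 6.59, 6.87 and 6.90 under *par-1* RNAi and 2.46, 2.81 and 0 in the control. These groups did not overlap but were not called (log2 fold change 1.73, adjusted p = 0.138 from edgeR).

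In CB4856 under *par-1* RNAi, edgeR called *btb-13*, *sdz-35* and *clc-32* higher and Y19D10B.1 lower. DESeq2 called none of them. It gave *sdz-35* and *clc-32* no adjusted p, Y19D10B.1 an adjusted p of 0.124, and *btb-13* 0.0828 with a shrunken fold change below 1.5. *btb-13* had 22.8, 22.0 and 23.9 under *par-1* RNAi, against 5.51, 7.47 and 5.73 in the control (log2 fold change 1.83, standard error 0.59, adjusted p = 0.0925 from edgeR). *sdz-35* had 6.15, 9.12 and 8.33, against 2.70, 0.596 and 1.07 in the control (log2 fold change 2.41, standard error 0.77, adjusted p = 0.0778 from edgeR). Of the 43 early zygotic genes tested (*sdz-35* included), 5 rose and 0 fell in this comparison, and their summed count was 1044 to 1110 under *par-1* RNAi and 545 to 803 in the control; the part of this in the *sdz-35* value was not tested. *clc-32*, of the claudin-like family of membrane proteins, had 4.55, 7.15 and 1.49, against 0, 0.588 and 0 in the control (13 reads against 1, ratio of CPM 15.6, 95% interval from 2.34 to 662 for counting error only; adjusted p = 0.0353 from edgeR). Y19D10B.1 fell by 1.78 on the log2 scale (standard error 0.59, adjusted p = 0.0873 from edgeR). The calls of *btb-13*, *sdz-35* and Y19D10B.1 were lost without any 1 of the 6 CB4856 libraries (adjusted p from 0.107 to 0.259). Without the 3 libraries of one fragment length the *sdz-35* call was lost too (adjusted p = 0.135 from edgeR). The *clc-32* call was lost without control replicate 1 or 3 or *par-1* RNAi replicate 1 or 2 (adjusted p from 0.104 to 0.145).

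In QX1211 under *par-1* RNAi, edgeR called both neighbors on chromosome V, whose counts were given above, lower. DESeq2 called neither, with an adjusted p of 0.0826 for Y19D10B.4 and 0.0805 for Y19D10B.1 but shrunken fold changes below 1.5. Y19D10B.4 fell by 2.69 on the log2 scale (standard error 0.83, adjusted p = 0.0524 from edgeR) and Y19D10B.1 by 2.33 (standard error 0.77, adjusted p = 0.0722 from edgeR). The Y19D10B.4 call was lost when any library other than control replicate 3 was left out (adjusted p from 0.108 to 0.194), and the Y19D10B.1 call when any library other than control replicate 1 was left out (adjusted p from 0.117 to 0.237). In EG4348, T10D4.19 rose under *par-1* RNAi with 7.54, 1.86 and 5.21, against 0.719, 1.79 and 0 in the control (16 reads against 3, ratio of CPM 5.03, 95% interval from 1.44 to 26.9 for counting error only; adjusted p = 0.0788 from edgeR). In this comparison 11 of 43 early zygotic genes rose and 0 fell (summed count 778 to 984 under RNAi and 505 to 630 in the control), and the summed count of the 43 sperm genes was 144 to 465 under RNAi and 31.2 to 73.8 in the control with 0 called; their part in it was not tested. The T10D4.19 call was lost without control replicate 1, control replicate 3, *par-1* RNAi replicate 1 or *par-1* RNAi replicate 3 (adjusted p from 0.200 to 0.423). DESeq2 did not make it (adjusted p = 0.133).

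Under *pos-1* RNAi in JU1088, Y113G7A.22 and *btb-13* were also called by edgeR, and not by DESeq2. Y113G7A.22 (WBGene00206510), annotated as protein coding with a transcript of 93 bases that overlaps a transfer RNA pseudogene on the opposite strand, had 6.13 or more in each library, with a mean of 10.1, against 0, 1.44 and 2.15 in the control (55 reads against 3, ratio of CPM 8.70, 95% interval from 2.83 to 43.5 for counting error only). The *btb-13* call (adjusted p = 0.0964 from edgeR) rests on 1 library: replicate 2 had 7.72, and replicates 1 and 3 and all controls were at 0, so the groups overlap. That library is the deepest of the series, with 17865356 estimated reads, and one of the 3 of one fragment length. Without it the 3 JU1088 calls under *pos-1* RNAi were lost, and the calls over all genes numbered 234 without the 3 libraries of one fragment length, against 1529 with them. In the same comparison 39 of 136 collagen genes fell and 1 rose, and their summed count was 68225 to 145750 under *pos-1* RNAi and 180851 to 199438 in the control. In it 12 of 43 early zygotic genes rose and 2 fell, with a summed count of 1263 to 1794 under *pos-1* RNAi and 778 to 852 in the control. The part of either list in the 3 calls was not tested.

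**Figure D5:**
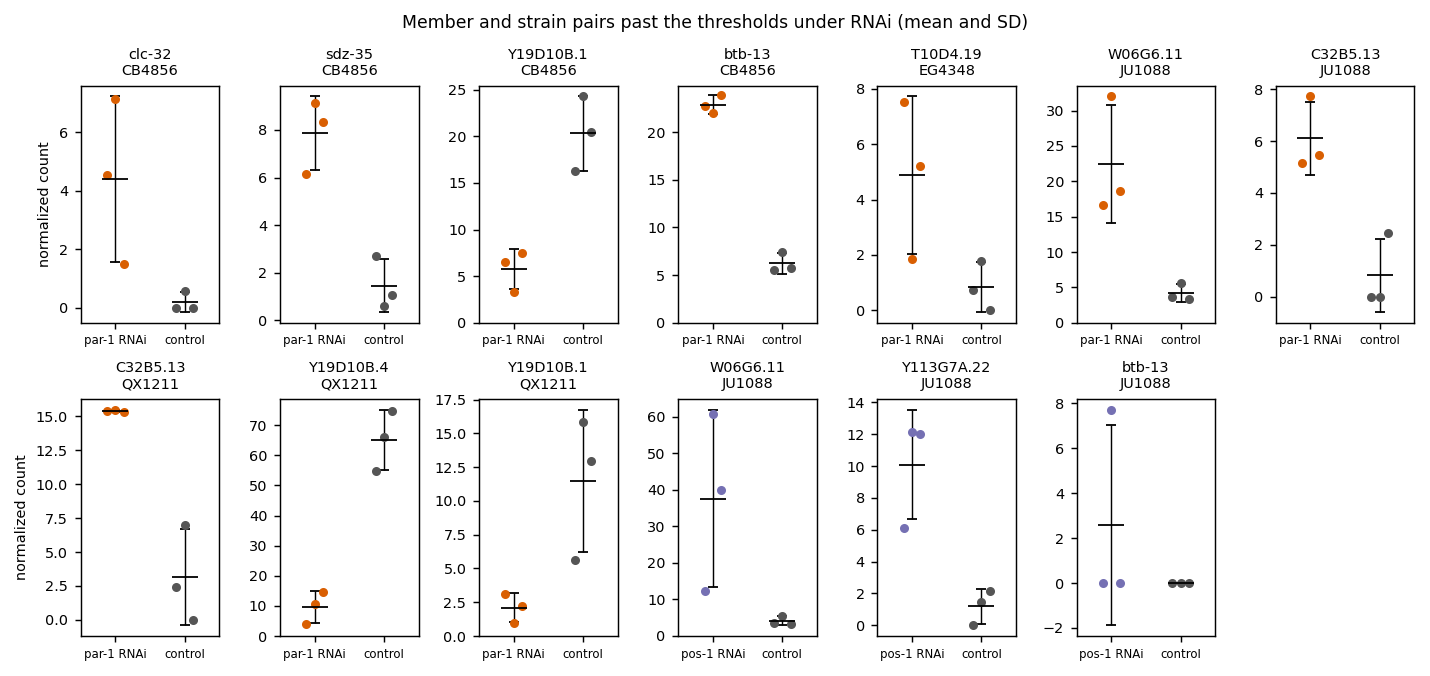
Normalized counts of the 13 member and strain pairs that passed the test, RNAi on the left and control on the right of each panel; points are libraries and bars the mean and SD (n = 3). The pairs were chosen by the test on these same libraries, so a gap between the groups is no further support. For *btb-13* in JU1088 the RNAi libraries overlap the controls.

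The test of whether the RNAi responses differed among JU1088, EG4348, CB4856 and QX1211 called 0 of the 45 members. Over all genes tested the share called was 0.64%. The 9 members above 0 in 1 strain alone had no counts elsewhere to compare, so the 0 says nothing about them. By edgeR 7 members had an unadjusted p below 0.05, for which no share over all genes is given. DESeq2's likelihood ratio test called 1, *ins-19* (adjusted p = 0.0122, against 0.174 from edgeR). It called 821 of 13159 genes in all, so a call by DESeq2 is not to be set against the 0.64% of edgeR. In QX1211, the *par-1* RNAi libraries had 106, 72.0 and 77.4 counts of *ins-19* and the *pos-1* RNAi libraries 63.0, 69.5 and 46.8, against 46.6, 40.8 and 40.8 in the control. In CB4856 the *par-1* RNAi libraries had 8.28, 2.27 and 2.98 and the *pos-1* RNAi libraries 16.2, 26.4 and 29.3, against 9.02, 12.3 and 14.6 in the control. The *par-1* RNAi libraries thus lay above the controls in QX1211 and below them in CB4856, with a log2 fold change of 0.95 (standard error 0.45) and -1.38 (standard error 0.61), neither of which passed on its own (adjusted p = 0.242 and 0.238 from edgeR). Y40B10B.1 in QX1211 had 52.3, 61.8 and 63.9 in the *pos-1* RNAi libraries, against at most 35.8 in the control. All *pos-1* RNAi libraries lay above the controls, but the difference did not pass (log2 fold change 1.62, standard error 0.50, adjusted p = 0.674 from edgeR).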

How the data were processed

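Whole-worm RNA of 5 strains was sequenced in 45 libraries (15 groups of 3). The authors trimmed reads with Trimmomatic 0.3.9, estimated strand-specific read counts per transcript with Salmon 1.4.0 on transcriptomes in which each strain's known variants replaced the N2 sequence (WS276), and deposited counts normalized with DESeq2 1.32.0, used here as the signal. The deposited expected counts and TPM per transcript were summed per gene, and expected counts were rounded. The deposited effective lengths gave length offsets.

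The rule's members and the gene lists were chosen with earlier results of these data known. Members were named by the Ensembl annotation (WBcel235), or for 17 by RefSeq, and all 45 were matched. Text names the 2 markers of the group, the 12 members with the highest strain mean, those at 5 or more in all 4 wild strains, every member called under RNAi, W06G6.11, ZK218.8, the highest member of each single strain, neighboring members and those at the threshold; further names were chosen after their values were seen.

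edgeR 4.0.16 (quasi-likelihood F test, TMM factors, length offsets, 15 group means) was run on 18581 genes with 10 or more reads over all libraries, under R 4.3.3, with Benjamini-Hochberg adjustment, and checked on simulated data. DESeq2 1.42.0 with ashr 2.2.63 was an alternative. Biological replicates are named as such by the study, and replicate numbers were shared between groups. Same-numbered libraries deviated together in all 3 pairs only for *pos-1* RNAi in CB4856 (correlation 0.37, 0.35 and 0.16), where the numbers may mark pairing. The main test had no term for it. An alternative, the replicate block, gave each replicate number an effect shared by all groups.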

Additional observations from a re-analysis of the deposited data

Results flagged for a closer look

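*ins-19* was picked out because its *par-1* RNAi libraries all lay above the controls in QX1211 and all below them in CB4856. The log2 fold changes in the 2 strains differed by 2.33. The test over the 4 strains gave an adjusted p of 0.174 from edgeR, and from 0.0122 to 0.328 over its 42 alternatives, of which 3 passed.

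In 17 of the 72 pairs of a member and a strain in which it reached a mean of 5, the gap between the highest or lowest of the 9 libraries and its nearest neighbor, divided by the whole range, was above Dixon's 95% critical value. Chance gives this in about 1 in 20 groups of normally distributed values; that rate was not checked for low counts with many zeros, and the 9 libraries hold 3 treatments. Among members that overlap an expressed gene on the same strand, these were *rab-19* at 143 in EG4348 control replicate 3, 125 in CB4856 *par-1* RNAi replicate 3 and 43.1 in QX1211 control replicate 1, *arv-1* at 146 in EG4348 *pos-1* RNAi replicate 2, and Y46H3C.5 at 34.4 in that same EG4348 library and 173 in QX1211 *par-1* RNAi replicate 2. F45G2.9 had 33.6 in EG4348 *pos-1* RNAi replicate 2 too. In CB4856, Y19D10B.4 had 52.1 and T23D5.3 19.5 in *pos-1* RNAi replicate 1, W06G6.11 had 24.5 and F22B3.5 23.1 in *pos-1* RNAi replicate 2, and *hpo-7* had 23.6 in *par-1* RNAi replicate 1. In QX1211, *clc-32* had 22.6 in *par-1* RNAi replicate 2, F53E10.8 had 16.2 in *par-1* RNAi replicate 1 and F31E9.8 had 16.7 in control replicate 3. C14A6.10 had 18.3 in EG4348 *par-1* RNAi replicate 3. The single low value was T07H8.11 at 0.362 in JU1088 *pos-1* RNAi replicate 2.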

How the results depend on the processing

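The number of members rested on the threshold of 0 in N2: allowing fewer than 10 estimated reads over the 9 N2 libraries gave 197 genes, using control libraries alone gave 90 (36 of them members), and a mean of at least 10 gave 28. Names from the gene name table alone, without RefSeq (chosen after seeing the data), gave 51, of which the further 6 are pseudogenes. Leaving out 1 library gave 43 to 55 genes, the most without N2 control replicate 1, and 38 members were kept throughout. On arms within 25% of the length from either end lay 77.8% of the members. With 50 kb in place of 20 kb, 6 members were neighbors, against 2.

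Counts of members called under RNAi moved with the test. DESeq2 called 1, 0, 0 and 1 members under *par-1* RNAi in JU1088, EG4348, CB4856 and QX1211, 1 under *pos-1* RNAi in JU1088 and 1 for the difference between strains. With each strain fitted alone, 1, 5 and 1 members were called for *par-1* RNAi in JU1088, *par-1* RNAi in QX1211 and *pos-1* RNAi in JU1088, beside 946 of 15386, 1224 of 15471 and 603 of 15386 genes in all. Without the 3 libraries of one fragment length (chosen after seeing the data), 0 were called under *pos-1* RNAi in JU1088, beside 234 of 18382 genes in all. Of the 13 calls, 8 were kept and 5 lost in that setting. The difference between strains was then called in 31 of 18382 genes. Leaving out 1 library gave 0 to 3 calls under *par-1* RNAi in JU1088, 0 to 1 in EG4348, 0 to 2 in CB4856 and 1 to 2 in QX1211, 0 to 5 under *pos-1* RNAi in JU1088, and 0 to 2 for the difference between strains. Calls over all genes were not kept for these fits, so these counts have no background. Over all genes, DESeq2 called 938 of 13895, 384 of 13534, 456 of 12094 and 577 of 14615 under *par-1* RNAi in JU1088, EG4348, CB4856 and QX1211. Under *pos-1* RNAi in JU1088 it called 1080 of 13534. For the difference between strains it called 821 of 13159. With edgeR the numbers under *par-1* RNAi were 1580, 443, 818 and 956 in the same order of strains, each of 18581. They were 1529 under *pos-1* RNAi in JU1088 and 119 for the difference between strains, each of 18581. With the replicate block, the call of *btb-13* was lost in CB4856 (adjusted p = 0.115 from edgeR) and in JU1088 (adjusted p = 0.129 from edgeR), and 11 of 13 calls were kept. For *pos-1* RNAi in CB4856, where the numbers may mark pairing, there was no call to lose. The block's effects were shared by all groups, so pairing within CB4856 was not fitted. Other scaling, another filter and no length offsets kept all calls tested. The shared-sequence alternative was not run. Members with few reads are limited by depth.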
